A study of Homo sapiens with 61 samples.

Results

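The stathmin family is the group of 4 human genes STMN1, STMN2, STMN3 and STMN4. They were chosen by symbol, because STMN4 had been noted as rising after vincristine in neurons without the kinases DLK and LZK. These are 4 of 58440 gene identifiers in the count tables, measured in 61 libraries. The neurons were made from the human stem cell line WTC11, an established line of induced pluripotent cells, with NGN2, a transcription factor that drives stem cells to become neurons and that in experiment 1 was under a doxycycline-controlled cassette. All groups carry this background and were sampled about day 14 of differentiation, after 16 hours with 5 nM vincristine, a drug that blocks microtubule assembly, or with DMSO vehicle (called untreated). Experiment 1 held wild type (WT) neurons, knockouts named DLK KO and LZK KO, and the DLK LZK double KO, with 4 untreated and 4 vincristine libraries for each line. Experiment 2 held neurons that all carried the CRISPR interference machinery, which represses a gene without cutting it, and a guide RNA (gRNA) delivered by lentivirus. The guide was a scrambled Control gRNA, ATF2 gRNA or JUN gRNA, with 5 libraries per group except 4 for ATF2 gRNA with vincristine. The labels do not say whether a knockout line is 1 clone, how many guides were used per gene, or whether libraries of a group came from separate cultures. The p-values below therefore measure the spread between these libraries, which may be technical.

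Stathmins are small proteins that bind soluble tubulin dimers and reduce the pool that can add to microtubules, and phosphorylation by several kinases weakens that binding. STMN1 is the cytosolic member found in many tissues. STMN2 (SCG10), STMN3 (SCLIP) and STMN4 (RB3) are neural members whose extended first part is anchored to Golgi and vesicle membranes by palmitoylation. STMN2 is a growth cone protein known for axon regrowth and for its loss when the RNA-binding protein TDP-43 (gene TARDBP) fails in motor neurons. DLK and LZK are kinases at the head of a JNK cascade that responds to axon injury and to microtubule damage, and ATF2 and JUN are transcription factors that JNK phosphorylates.

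Levels are given in CPM, counts scaled by library size and the TMM factors of edgeR, and are compared only within an experiment. The summed CPM of cell type markers are scaled by total counts alone, without the TMM factors. The word called means a 2-sided quasi-likelihood p-value from edgeR that was under 0.05 after Benjamini-Hochberg adjustment across every gene tested. Values in the double KO are given with no test, because the genes were chosen from that line. Experiment 2 was sequenced more deeply, with 38.9 to 88.4 M counts in each library (M is mega) against 8.41 to 14.6 M in experiment 1. All 4 genes passed the filter on low counts in both experiments, and the smallest count of any member in any library was 131 reads, for STMN4 in the untreated double KO. The targeted genes followed the labels. Untreated ATF2 stood at 129 ± 18.6 CPM (SD, n = 5) with Control gRNA and 0.526 ± 0.294 CPM with ATF2 gRNA. JUN stood at 88.5 ± 6.97 and 2.87 ± 0.447 CPM with Control gRNA and JUN gRNA. In untreated WT the level of MAP3K12 (DLK) was 91.0 ± 2.23 CPM (SD, n = 4), against 26.3 ± 2.48 CPM in DLK KO and 19.7 ± 2.42 CPM in the double KO. That of MAP3K13 (LZK) was 99.1 ± 1.93 CPM, against 31.9 ± 1.96 CPM in LZK KO and 29.6 ± 2.00 CPM in the double KO. The summed CPM of 8 neuron markers (MAP2, TUBB3, RBFOX3, SYT1, SNAP25, NEFM, SLC17A6, SLC17A7) was at least 5965 in every library. None of them was at 0 throughout a group. The library WT vincristine replicate 4 stood apart. Mitochondrial RNA took 10.3% of its counts against 6.11% to 7.56% in the other 3 libraries of its group. Several values that rest on it are given with and without it. Group means in CPM and correlations between genes are given only with it. In LZK KO with vincristine, replicate 2 held 9.10% mitochondrial RNA against 5.41% to 7.05% in the rest of its group. That library also had the highest STMN1, STMN2 and STMN4 of its group.

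Per exonic length, STMN2 had the highest mean of the 4 stathmins in all 14 groups, an order that another length changed in some of them. Counts were divided by the exonic length in the tables, which is 6261 bases for STMN1, 2362 for STMN2, 3032 for STMN3 and 3294 for STMN4. In untreated WT, STMN2 made up 60.8 ± 1.30% of the family (SD, n = 4), STMN1 17.7 ± 0.416%, STMN4 12.3 ± 0.556% and STMN3 9.21 ± 0.937%. With vincristine the share of STMN4 in WT was 26.3 ± 2.59%, and that of STMN2 was 50.9 ± 3.78%. Without replicate 4 these shares were 27.4% and 49.1%. In the double KO STMN4 held 0.348 ± 0.0158% of the family untreated and 0.400 ± 0.0256% with vincristine. With ATF2 gRNA, STMN4 stood at 0.530 ± 0.0512% untreated (SD, n = 5), against 7.88 ± 0.273% with Control gRNA. The order of STMN1 and STMN2 depends on the length used. With the longest coding transcript of each gene (1712 bases for STMN1 and 2223 for STMN2), an alternative added after seeing the data, untreated WT had 40.8 ± 0.742% STMN1 and 40.6 ± 0.928% STMN2. With those lengths the mean of STMN1 was also above that of STMN2 in untreated DLK KO (48.6% against 38.3%), in DLK KO with vincristine (43.3% against 35.4%), and in the double KO untreated (46.5% against 43.7%) and with vincristine (46.8% against 43.8%). The share of STMN4 in untreated WT was then 11.1 ± 0.514%.

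**Figure D1:**
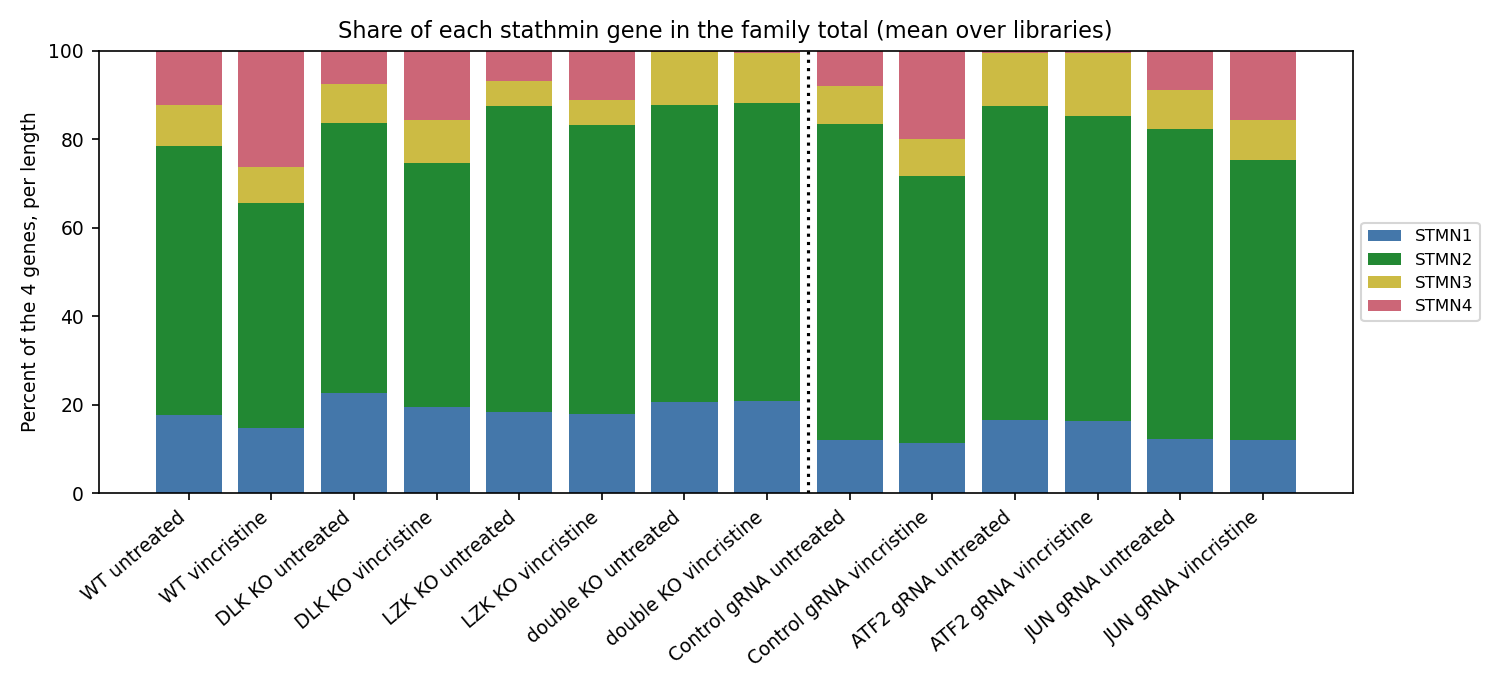
Stacked bars give the mean share of each stathmin gene in the family total, as percent of the 4 genes after division by exonic length, for the 8 groups of experiment 1 (left of the dotted line) and the 6 of experiment 2. STMN4 takes 12.3% in untreated WT and 26.3% with vincristine, and under 1% in the double KO and ATF2 gRNA groups.

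STMN4 (ENSG00000015592.16, GRCh38 chromosome 8, 27235323 to 27258420, minus strand) rose with vincristine in WT, in both single knockouts, with Control gRNA and with JUN gRNA. In untreated neurons it fell to 3.65% of Control gRNA with ATF2 gRNA and was not called with JUN gRNA. The untreated double KO held it at 4.04% of WT. This is the RB3 gene, whose product is a membrane-anchored stathmin of the nervous system.

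The 4 untreated WT libraries held STMN4 at 329.3, 333.1, 335.3 and 315.4 CPM. The 4 vincristine WT libraries held it at 723.6, 745.9, 719.2 and 811.7 CPM. No library overlapped between these groups. Vincristine raised STMN4 by a log2 fold change of 1.19 ± 0.06 (SE; edgeR adjusted p = 1.15e-17). In this comparison 1 of the 4 members was called, and 30.2% of 18235 genes tested were called. Library replicate 4 was not needed for it, since the value without it was 1.15.

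STMN4 also rose with vincristine in both single knockouts. DLK KO held 183.3, 185.1, 170.2 and 158.6 CPM untreated and 383.2, 373.9, 392.4 and 376.9 CPM with the drug. These groups did not overlap, and the log2 fold change was 1.13 ± 0.06 (adjusted p = 7.28e-16). STMN4 was 1 of 4 members called, where 6.53% of genes tested were called. In LZK KO the levels were 254.7, 275.0, 251.9 and 262.5 CPM untreated and 477.8, 563.6, 500.0 and 474.6 CPM with vincristine. The groups were again apart, with a log2 fold change of 0.95 ± 0.06 (adjusted p = 1.17e-13), and STMN4 was 1 of 4 members called against 3.88% of genes.

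The double KO libraries held STMN4 at 13.6, 12.2, 13.0 and 14.2 CPM untreated and at 15.5, 19.0, 16.8 and 19.0 CPM with vincristine. All 4 vincristine libraries lay above all 4 untreated ones, with a log2 fold change of 0.41 ± 0.08. All 4 stathmins were higher without overlap there, where 4.26% of genes tested were higher without overlap. These values are those the genes were chosen on and carry no test. The mean was 4.28 CPM higher with the drug in the double KO and 421.8 CPM higher in WT, and the log2 fold change differed from that of WT by -0.78 ± 0.10, or by -0.738 without WT vincristine replicate 4.

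The drug response of the single knockouts did not differ from WT by test for any of the 4 genes. For STMN4 the difference in log2 fold change was -0.06 ± 0.09 in DLK KO (adjusted p = 0.681), where 19.4% of genes tested were called, and -0.0218 without WT vincristine replicate 4. In LZK KO it was -0.24 ± 0.09 (adjusted p = 0.0616), where 12.4% were called. The LZK KO value passed the threshold with DESeq2 (-0.229, adjusted p = 0.0436), with a filter at a mean of 1 CPM (adjusted p = 0.0469) and without LZK KO vincristine replicate 2 (-0.297, adjusted p = 0.018). It did not pass with RLE factors (adjusted p = 0.077), with no low-count filter (adjusted p = 0.297), with only the groups compared (-0.216, adjusted p = 0.231) or without WT vincristine replicate 4 (-0.20, adjusted p = 0.0968).

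Without drug, STMN4 was lower than WT in each knockout line, and the order of its levels in experiment 1 had no overlap between neighbours. Untreated DLK KO stood at 53.1% of untreated WT, a log2 difference of -0.91 ± 0.06 (adjusted p = 1.23e-14). Untreated LZK KO stood at 79.5% of WT, a difference of -0.33 ± 0.06 (adjusted p = 4.99e-05). The untreated double KO stood 4.63 ± 0.08 lower on the log2 scale, with no test. From high to low, the group means were 750.1 CPM in WT, 504.0 in LZK KO and 381.6 in DLK KO with vincristine, then 328.3 in WT, 261.0 in LZK KO and 174.3 in DLK KO untreated. The double KO came last, at 17.6 CPM with vincristine and 13.3 CPM untreated. In bulk RNA, fewer cells that express a gene and less RNA per cell cannot be told apart.

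The genes were not chosen from experiment 2. Control gRNA libraries held STMN4 at 367.8 to 411.5 CPM untreated (median 386.2, n = 5) and at 879.8 to 941.3 CPM with vincristine (median 909.8, n = 5). The groups were apart, and the log2 fold change was 1.22 ± 0.07 (edgeR adjusted p = 1.51e-13). All 4 stathmins were called, STMN4 higher and the other 3 lower, where 17.1% of 20759 genes tested were called higher and 18.1% lower.

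With ATF2 gRNA, STMN4 was low with or without drug. The untreated libraries held 13.5, 15.4, 12.9, 15.6 and 13.8 CPM, from 593 to 1035 reads each. This was 3.65% of untreated Control gRNA, a log2 difference of -4.77 ± 0.09 (adjusted p = 3.60e-25). All 4 stathmins were called lower without overlap in this comparison, where 20.2% of genes tested were called lower and 15.6% were lower without overlap. The vincristine libraries held 14.9, 8.83, 9.48 and 10.99 CPM. Replicate 2 was high among them and overlapped the untreated libraries. For STMN4 this gave a log2 fold change of -0.37 ± 0.10 (adjusted p = 0.0185), and STMN4 was 1 of 3 members called lower against 4.22% of genes. That call is fragile. It was lost when only the groups compared were fitted (-0.355, adjusted p = 0.164) and when untreated replicate 2 (-0.336) or 4 (-0.329) or vincristine replicate 3 (-0.266) or 4 (-0.293) was left out. Without vincristine replicate 2 it was -0.541.

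With JUN gRNA, untreated STMN4 was 390.5 to 433.5 CPM (median 417.6, n = 5), which overlapped Control gRNA. The difference was 0.09 ± 0.07 on the log2 scale (adjusted p = 0.577). Vincristine libraries held 650.7 to 727.7 CPM (median 680.4, n = 5), apart from the untreated ones and below every vincristine library of Control gRNA. STMN4 rose by a log2 fold change of 0.72 ± 0.07 (adjusted p = 2.31e-08), where 7.58% of genes were called higher. Of the 4 members, STMN4 was called higher, STMN1 and STMN2 lower, and 8.31% of genes were called lower.

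The STMN4 response itself differed between guides. The log2 fold change was 1.59 ± 0.12 smaller with ATF2 gRNA than with Control gRNA (adjusted p = 7.16e-11), where 20.6% of genes tested were called for this difference and 3 of 4 members were. It was 0.50 ± 0.10 smaller with JUN gRNA than with Control gRNA (adjusted p = 0.000754), where 15.8% of genes and 3 of 4 members were called. Between ATF2 gRNA and JUN gRNA the difference was -1.09 ± 0.12 (adjusted p = 8.37e-07), and STMN4 was the 1 member called, against 2.83% of genes. In order of level, Control gRNA and then JUN gRNA with vincristine came first and stood apart. The untreated JUN gRNA and Control gRNA groups overlapped each other, and so did the pair of ATF2 gRNA groups at the bottom.

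**Figure D2:**
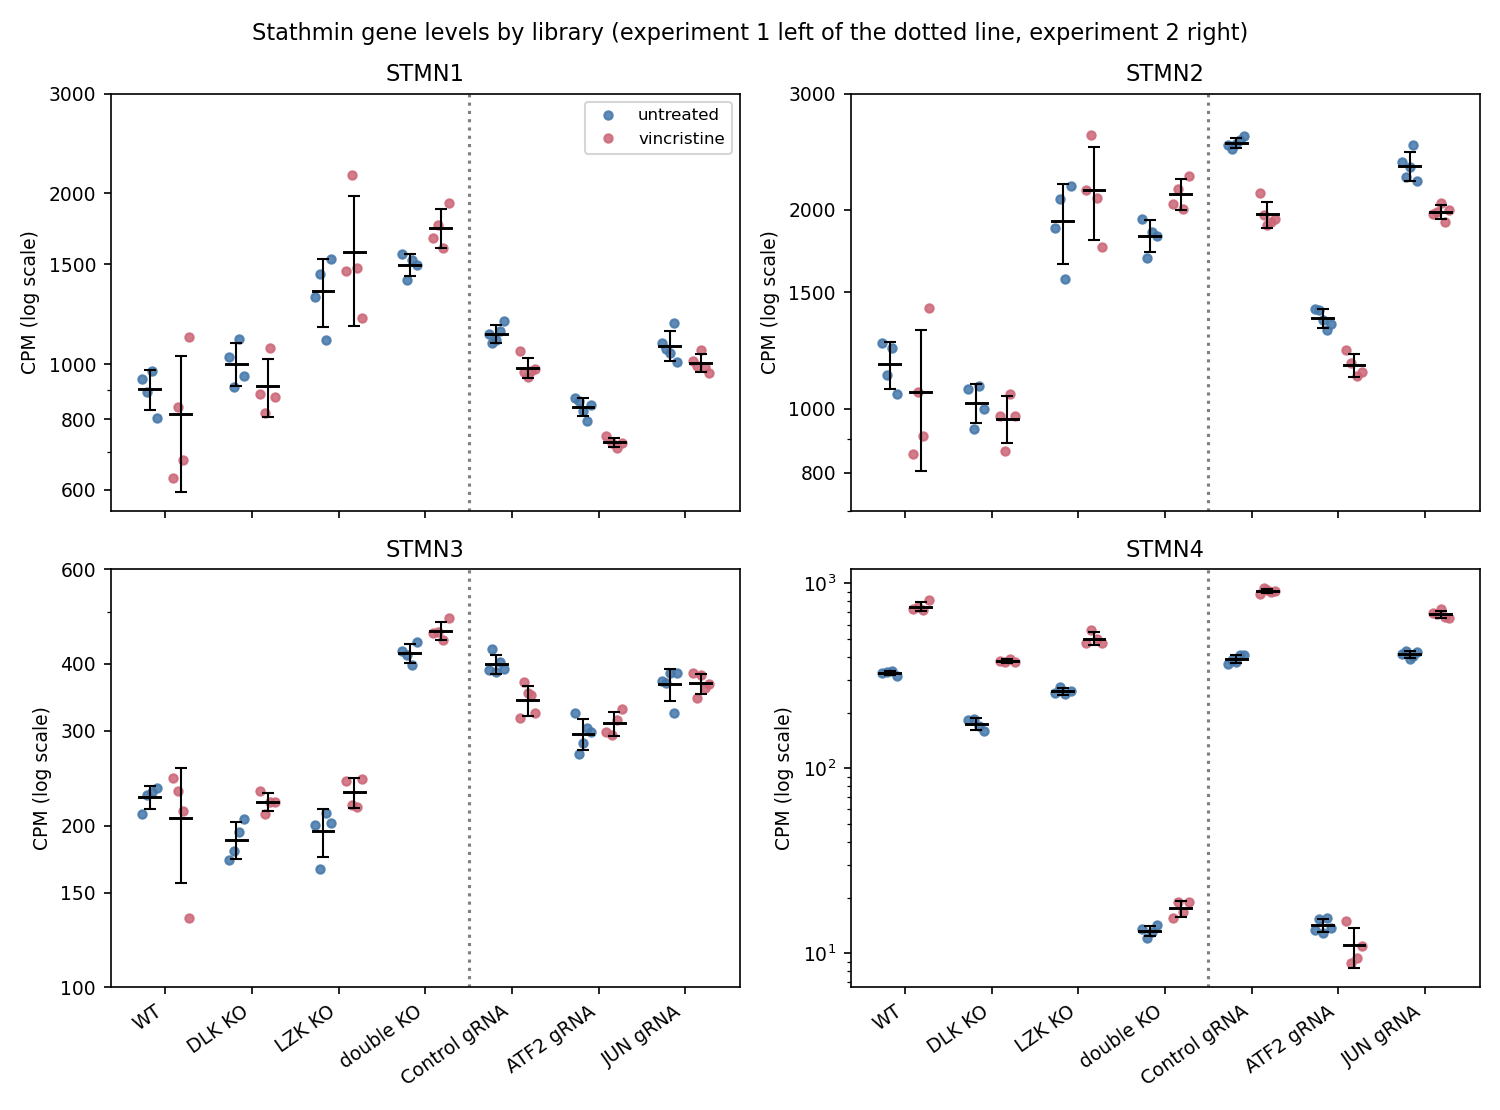
Each point is a library, with CPM on a log axis for STMN1, STMN2, STMN3 and STMN4, in 4 lines of experiment 1 and 3 guides of experiment 2. Bars give the group mean and SD. STMN4 lies between 8.83 and 19.0 CPM in the double KO and ATF2 gRNA libraries and at 158.6 CPM or more in all others.

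The levels of ATF2 and JUN are set beside STMN4 as values with no test. ATF2 stood at 148 ± 6.22 CPM in the untreated double KO (SD, n = 4) and at 141 ± 14.0 CPM in WT, with overlap. DLK KO held less ATF2 RNA, 71.0 ± 5.93 CPM. In the order in which STMN4 declined over untreated lines of experiment 1, JUN stood at 140 ± 8.08 CPM in untreated WT, 116 ± 13.3 in LZK KO, 55.3 ± 5.34 in DLK KO and 39.6 ± 2.59 in the double KO. In experiment 2, JUN gRNA held JUN at 2.24 to 3.47 CPM untreated, with STMN4 at 390.5 CPM or more in the same libraries. ATF2 gRNA held JUN at 18.2 to 22.5 CPM untreated, against 81.7 to 97.8 CPM with Control gRNA.

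**Figure D3:**
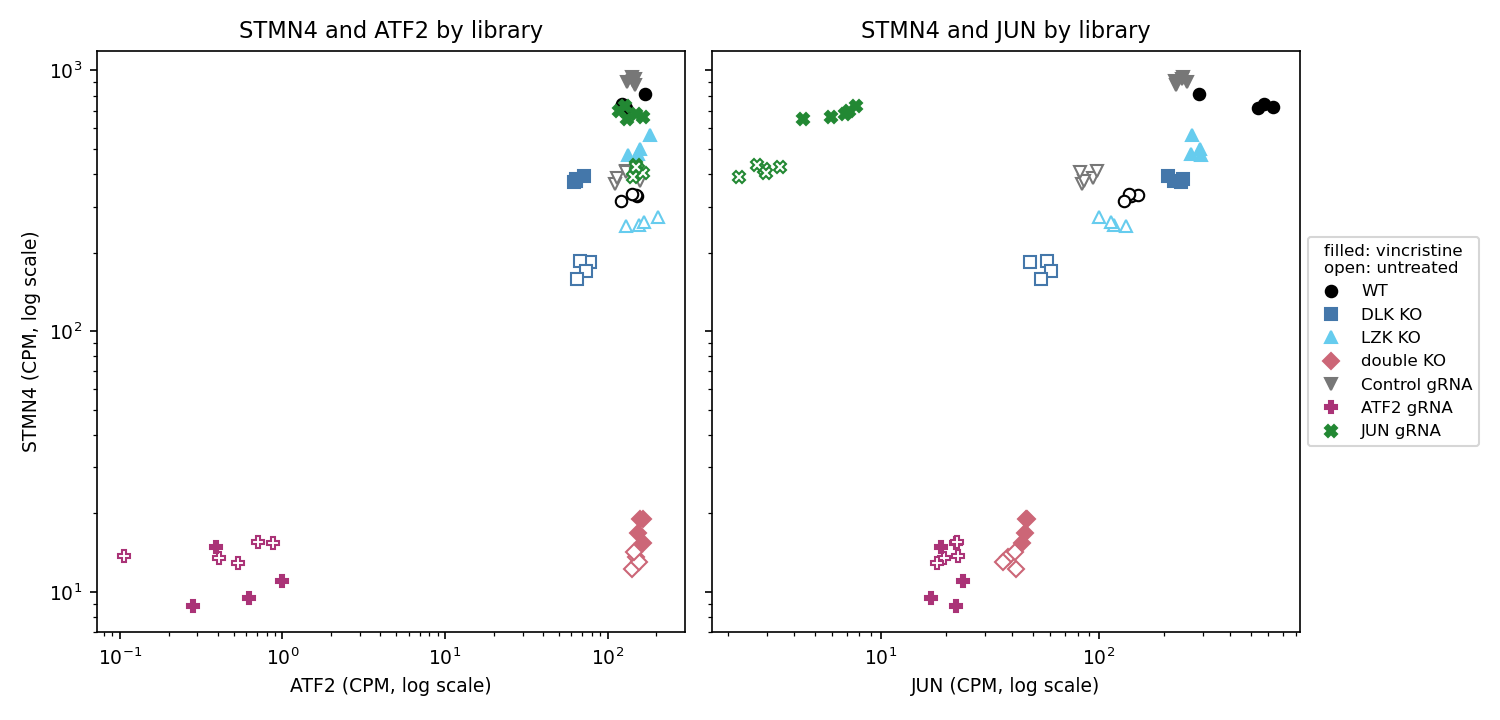
STMN4 (CPM, log axis) is plotted against ATF2 (left) and JUN (right) in each library, with open symbols for untreated and filled ones for vincristine. Libraries at or below 19.0 CPM of STMN4 come from ATF2 gRNA, with ATF2 under 1 CPM, and from the double KO, with ATF2 between 141 and 165 CPM.

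Marker sums of other cell types are given beside STMN4. The summed CPM of 3 pluripotent cell markers (POU5F1, NANOG, LIN28A) was 52.7 to 57.7 in the untreated double KO and 2.05 to 2.62 in untreated WT. It was 6.61 to 10.6 in untreated DLK KO and 11.9 to 17.8 in untreated LZK KO, lines in which STMN4 stood at 53.1% and 79.5% of WT. In untreated ATF2 gRNA it was 14.8 to 18.6 with NANOG at 0 in every library, and in untreated Control gRNA it was 3.03 to 4.90. In untreated JUN gRNA, where STMN4 overlapped Control gRNA, it was 8.56 to 9.97, also with NANOG at 0 in every library. The sum of 4 markers of dividing cells (MKI67, TOP2A, CCNB1, CDK1) was 6.92 to 11.0 in untreated ATF2 gRNA and 9.97 to 14.7 in untreated Control gRNA. The sum of 4 neural progenitor markers (SOX2, PAX6, NES, HES1) was 113 to 121 in the untreated double KO against 698 to 754 in WT, and 749 to 833 in untreated ATF2 gRNA against 1249 to 1330 in untreated Control gRNA. It was 2417 to 2528 with Control gRNA and vincristine, while the sum of 8 neuron markers was 5965 to 6286 there and 8378 to 8938 untreated. That neuron sum includes the tubulin gene TUBB3. Tubulin genes as a list had a median log2 fold change of -1.26 with vincristine in Control gRNA, against 0.03 over all genes tested. The part of TUBB3 in the lower neuron sum was not tested. Without drug, the neuron sum was 11940 to 12650 in the double KO and 9157 to 10090 in WT. It was 10810 to 11990 in untreated DLK KO and 8361 to 10090 in untreated LZK KO. With untreated ATF2 gRNA it was 9448 to 9912, and with untreated JUN gRNA 8717 to 9390, against 8378 to 8938 with untreated Control gRNA. No marker of neurons or progenitors was at 0 throughout any of these groups. The part of these markers in the STMN4 result was not tested. The 20 genes tested nearest to STMN4, 10 on each side, had a median log2 difference of -0.07 for untreated ATF2 gRNA, with 5 called higher and 7 lower.

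STMN2 (ENSG00000104435.13, chromosome 8, 79610814 to 79666175, plus strand) fell with vincristine under all 3 guides and fell in untreated neurons with ATF2 gRNA. It was higher in untreated LZK KO than in WT. It encodes SCG10, the growth cone stathmin. Control gRNA held 2470 to 2587 CPM untreated (median 2517) and 1898 to 2124 CPM with vincristine (median 1939). These groups were apart, with a log2 fold change of -0.36 ± 0.03 (adjusted p = 3.57e-13).

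ATF2 gRNA held STMN2 at 1318 to 1419 CPM untreated (median 1362), below every Control gRNA library. That was 54.3% of Control gRNA, a log2 difference of -0.88 ± 0.03 (adjusted p = 5.46e-27). With vincristine it held 1227, 1172, 1120 and 1136 CPM, a log2 fold change of -0.24 ± 0.03 (adjusted p = 3.21e-06). The fall was 0.12 ± 0.05 smaller than with Control gRNA (adjusted p = 0.0487). That difference was close to the threshold and was lost on leaving out any 1 of 16 of the 19 libraries, all but untreated ATF2 gRNA replicates 1 and 2 and Control gRNA vincristine replicate 1, with values from 0.0881 to 0.150.

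JUN gRNA held STMN2 at 2209 to 2511 CPM untreated (median 2324), partly overlapping Control gRNA, with a log2 difference of -0.12 ± 0.03 (adjusted p = 0.00898). It was the 1 member called in that comparison, lower, where 5.46% of genes were called lower. Without untreated replicate 5 it was -0.0922 and not called (adjusted p = 0.0632). With vincristine JUN gRNA held 1916 to 2051 CPM (median 1986), a log2 fold change of -0.23 ± 0.03 (adjusted p = 2.20e-07). The fall was 0.13 ± 0.04 smaller than with Control gRNA (adjusted p = 0.0390), a call lost on leaving out any 1 of 15 of the 20 libraries (0.0857 to 0.158). It held without untreated Control gRNA replicate 2, vincristine Control gRNA replicate 1, untreated JUN gRNA replicate 4 or vincristine JUN gRNA replicate 1 or 4. Over the 6 groups, the means ran from 2527 CPM in untreated Control gRNA through 2329 in untreated JUN gRNA, 1985 and 1968 with vincristine in JUN gRNA and Control gRNA, to 1371 and 1164 in untreated and treated ATF2 gRNA. The ranges overlapped within the first pair and within the second pair of these groups, and both ATF2 gRNA groups stood apart.

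In experiment 1, WT held STMN2 at 1258, 1125, 1236 and 1054 CPM untreated and at 855, 1061, 909.6 and 1421 CPM with vincristine. Replicate 4 was the high library, and the groups overlapped. STMN2 had a log2 fold change of -0.14 ± 0.12 (adjusted p = 0.429). Without that library it was -0.312 and called (adjusted p = 0.0305).

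STMN2 differed between untreated lines. Untreated LZK KO held 1876, 2075, 1572 and 2175 CPM, above every WT library, a log2 difference of 0.72 ± 0.12 (adjusted p = 2.64e-05). STMN1 and STMN2 were the members called higher there, 2 of 4, and 17.1% of genes were called higher. The 20 genes tested nearest to STMN2 had a median log2 difference of 0.34 there, with 9 called higher and 1 lower, against 17.1% and 16.8% of genes. Their median was also 0.24 in untreated DLK KO and 0.23 in the untreated double KO. In experiment 2 the median of the nearest 20 was 0.31 with untreated ATF2 gRNA, where STMN2 was lower, and 0.07 with untreated JUN gRNA. The part of the region in the STMN2 result was not tested. The untreated double KO held 1938, 1694, 1854 and 1829 CPM, 0.65 ± 0.12 above WT with no test. Untreated DLK KO held 1072, 931.4, 1083 and 999.4 CPM, overlapping WT, with a difference of -0.19 ± 0.12 (adjusted p = 0.232). When only the groups compared were fitted, that difference was called (-0.194, adjusted p = 0.00941).

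With vincristine, STMN2 stood at 862.2 to 1053 CPM in DLK KO, 1756 to 2598 in LZK KO and 2006 to 2252 in the double KO. The log2 fold change was -0.08 ± 0.12 in DLK KO (adjusted p = 0.730) and 0.16 ± 0.12 in LZK KO (adjusted p = 0.578), neither called. In the double KO it was 0.21 ± 0.12, with no test. The response in LZK KO differed from WT by 0.30 ± 0.17 (adjusted p = 0.286), and by 0.47 without WT vincristine replicate 4 (adjusted p = 0.0334). In order of level, neighbours overlapped among the LZK KO and double KO groups and among the WT and DLK KO groups, and the 2 sets were apart.

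STMN1 (ENSG00000117632.22, chromosome 1, 25884181 to 25906991, minus strand), the cytosolic stathmin also known as oncoprotein 18, fell modestly with vincristine under each guide. It fell in untreated neurons with ATF2 gRNA and was higher in untreated LZK KO. Control gRNA held 1088 to 1190 CPM untreated (median 1129) and 948.0 to 1055 CPM with vincristine (median 972.6). The groups were apart and the log2 fold change was -0.20 ± 0.03 (adjusted p = 5.79e-06).

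ATF2 gRNA held STMN1 at 793.7 to 869.8 CPM untreated (median 847.8), which was 74.3% of Control gRNA. The log2 difference was -0.43 ± 0.03 (adjusted p = 1.52e-14), and the ranges were apart. Its vincristine libraries held 746.4, 724.6, 711.6 and 726.8 CPM, a log2 fold change of -0.21 ± 0.04 (adjusted p = 0.000127). That response differed from Control gRNA by -0.01 ± 0.05 (adjusted p = 0.936). Both ATF2 gRNA groups stood apart from each other and below all Control gRNA and JUN gRNA libraries.

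JUN gRNA held STMN1 at 1007 to 1180 CPM untreated (median 1061) and 964.2 to 1060 CPM with vincristine (median 993.0), with overlap. The log2 fold change was -0.10 ± 0.03 (adjusted p = 0.0368). The call was lost when only the groups compared were fitted (-0.099, adjusted p = 0.0936) and without untreated replicate 1 (-0.0977) or 4 (-0.0656) or vincristine replicate 2 (-0.0966), 4 (-0.0953) or 5 (-0.0881). Untreated JUN gRNA differed from Control gRNA by -0.07 ± 0.03 (adjusted p = 0.218), and by -0.106 without untreated replicate 4 (adjusted p = 0.0318). The response differed from Control gRNA by 0.10 ± 0.05 (adjusted p = 0.191), and by 0.134 without the same library (adjusted p = 0.0354).

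In experiment 1, WT held STMN1 at 942.7, 894.3, 970.9 and 803.5 CPM untreated and at 628.9, 839.2, 677.4 and 1116 CPM with vincristine. Replicate 4 was again high, and the log2 fold change was -0.15 ± 0.15 (adjusted p = 0.509), or -0.337 without that library (adjusted p = 0.0806). Untreated LZK KO held 1314, 1441, 1102 and 1531 CPM, above every WT library, a difference of 0.58 ± 0.15 (adjusted p = 0.00386). Untreated DLK KO held 911.2 to 1109 CPM and did not pass the test (0.15 ± 0.15, adjusted p = 0.492). The untreated double KO held 1406 to 1560 CPM, 0.73 ± 0.15 above WT with no test.

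After vincristine, STMN1 was 821.2 to 1069 CPM in DLK KO, 1207 to 2156 in LZK KO and 1604 to 1926 in the double KO. The log2 fold change was -0.13 ± 0.15 in DLK KO (adjusted p = 0.637), 0.23 ± 0.15 in LZK KO (adjusted p = 0.504) and, with no test, 0.22 ± 0.15 in the double KO. Every group overlapped its neighbour in the order of levels, from 1740 CPM in the treated double KO to 815.4 CPM in treated WT. STMN1 is known to be abundant in dividing cells, so the sum of the 4 markers of dividing cells is given beside it. That sum was 61.5 to 67.5 CPM in untreated LZK KO, 23.6 to 30.4 in the untreated double KO, 18.0 to 20.1 in untreated DLK KO and 10.6 to 11.8 in untreated WT, with no marker at 0 in every library of a group. Their part in the STMN1 result was not tested.

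STMN3 (ENSG00000197457.9, chromosome 20, 63639705 to 63657682, minus strand), which encodes the SCG10-like protein SCLIP, fell with vincristine under Control gRNA and was not called under ATF2 gRNA or JUN gRNA. It fell in untreated neurons with ATF2 gRNA. Control gRNA held 386.8 to 427.0 CPM untreated (median 391.0) and 316.6 to 369.5 CPM with vincristine (median 350.4). These were apart, with a log2 fold change of -0.22 ± 0.05 (adjusted p = 0.000146).

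ATF2 gRNA held STMN3 at 271.4 to 323.9 CPM untreated (median 298.3), below every untreated Control gRNA library. The log2 difference was -0.43 ± 0.05 (adjusted p = 3.03e-10). With vincristine it held 299.2, 294.8, 315.1 and 330.2 CPM, overlapping the untreated range, and the fold change was 0.06 ± 0.05 (adjusted p = 0.559). That response differed from Control gRNA by 0.29 ± 0.07 (adjusted p = 0.00153). JUN gRNA held 323.6 to 384.8 CPM untreated (median 370.9) and 346.1 to 385.3 CPM with vincristine (median 366.3). The fold change was 0.01 ± 0.05 (adjusted p = 0.964), and it differed from Control gRNA by 0.23 ± 0.07 (adjusted p = 0.0119). The untreated difference of JUN gRNA from Control gRNA was -0.13 ± 0.05 (adjusted p = 0.0782). Untreated Control gRNA stood above the other groups in order of level, and each of those overlapped its neighbours.

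WT held STMN3 at 210.1, 227.8, 231.0 and 234.8 CPM untreated and at 245.1, 232.3, 213.0 and 134.2 CPM with vincristine. Replicate 4 was the low library here, and the log2 fold change of -0.13 ± 0.10 (adjusted p = 0.372) was 0.0254 without it. The double KO held 423.6, 416.3, 397.7 and 438.8 CPM untreated and 457.1, 457.6, 443.7 and 486.9 CPM with vincristine, with no test. Both groups stood above every other library of experiment 1 for this gene, and the untreated difference from WT was 0.89 ± 0.10. The 20 genes tested nearest to STMN3 had a median log2 difference of 0.50 in that comparison, against 0.01 over all genes tested. All 4 stathmins were apart from WT in the untreated double KO, 3 higher and STMN4 lower, where 47.2% of genes tested were apart.

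Neither single knockout had STMN3 at that level. Untreated DLK KO held 172.7, 179.3, 194.5 and 205.6 CPM, below every WT library, a log2 difference of -0.26 ± 0.10 (adjusted p = 0.0476). STMN3 and STMN4 were the 2 of 4 members called, both lower, where 17.9% of genes were called lower. The STMN3 call was lost with DESeq2 (-0.264, adjusted p = 0.0594) and without untreated DLK KO replicate 1 (-0.217), 2 (-0.235) or 3 (-0.269) or untreated WT replicate 2 (-0.268), 3 (-0.245) or 4 (-0.239). Untreated LZK KO held 165.9 to 211.0 CPM and was not called (-0.21 ± 0.10, adjusted p = 0.119), though it was with no filter on low counts (-0.217, adjusted p = 0.0367) and in a fit of only these groups (-0.223, adjusted p = 0.026). STMN4 was the 1 member called lower in untreated LZK KO, against 16.8% of genes.

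With vincristine, STMN3 was 210.3 to 231.4 CPM in DLK KO, above its untreated libraries, with a log2 fold change of 0.23 ± 0.10 (adjusted p = 0.170). A fit of only these groups called it (0.24, adjusted p = 0.00462). It was 216.2 to 244.5 CPM in LZK KO, also above its untreated libraries (0.24 ± 0.10, adjusted p = 0.241). The double KO value was 0.14 ± 0.10, with no test. The response differed from WT by 0.37 ± 0.15 in DLK KO (adjusted p = 0.0794) and by 0.37 ± 0.15 in LZK KO (adjusted p = 0.0985). Both passed with no filter (0.366, adjusted p = 0.0148, and 0.382, adjusted p = 0.0147). Leaving out WT vincristine replicate 1 gave called values of 0.45 and 0.464, leaving out replicate 2 a called 0.421 in DLK KO, and leaving out replicate 4 gave 0.208 and 0.216.

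**Figure D4:**
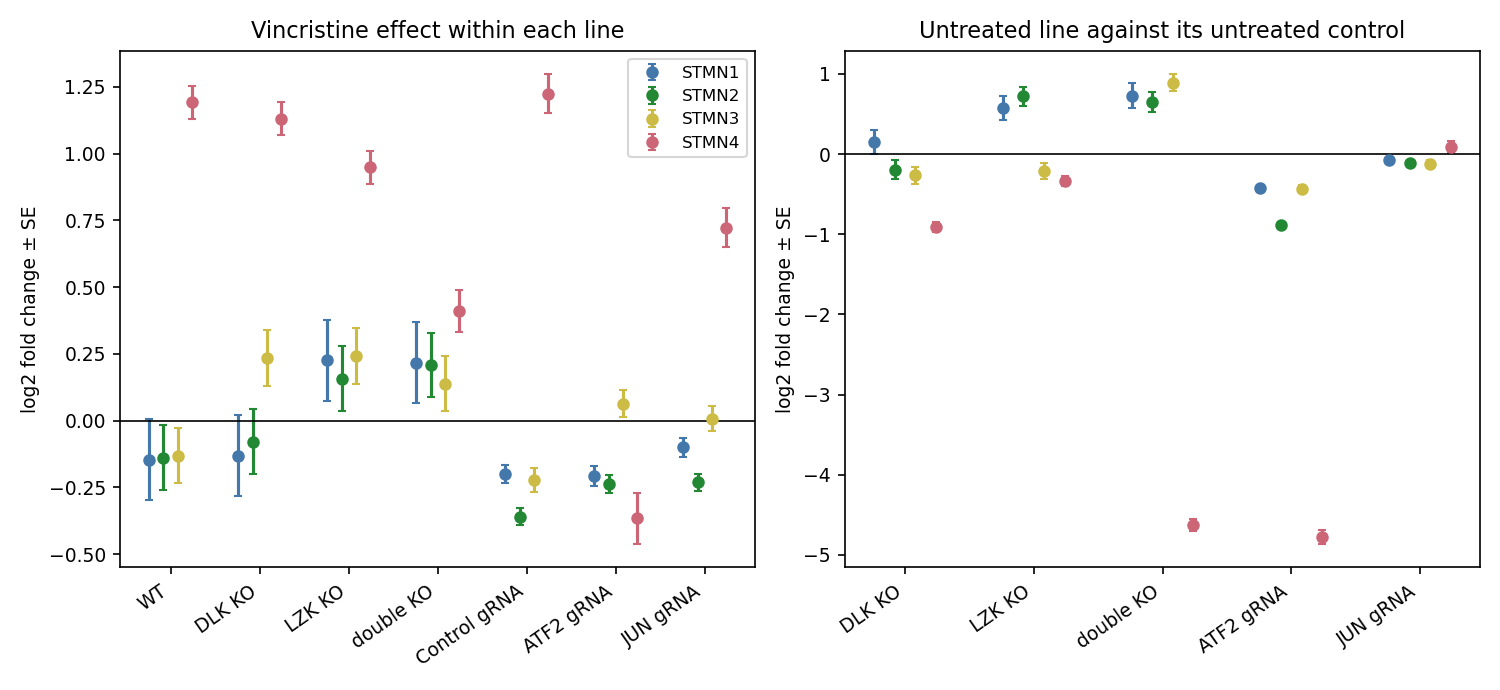
Points give the log2 fold change and bars its SE for the 4 stathmin genes, for vincristine against untreated in each line (left) and for each untreated line against its untreated control (right). STMN4 lies at -4.63 in the double KO and -4.77 with ATF2 gRNA on the right, and between 0.72 and 1.22 on the left except in those lines.

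Promoters were searched because all 4 stathmins fell in untreated neurons with ATF2 gRNA. ATF2 and JUN are known to bind the cyclic AMP response element (CRE) and the AP-1 site. Only STMN1 and STMN3 are shown, because the sequences used held no entry for STMN2 or STMN4. The unsearched genes were the most lowered, STMN2 to 54.3% and STMN4 to 3.65% of untreated Control gRNA. RefSeq sequences of build GRCh38.p14 were matched by symbol for 2 of the 4 members, and the 250 bases upstream of a start were searched on both strands. Capitals would mark a CRE (TGACGTCA), an AP-1 site (TGACTCA) or the CRE core TGACG, which lies within the CRE. No letters are in capitals because none of these was in either window.
STMN1, chr1:25906420-25906669, minus strand: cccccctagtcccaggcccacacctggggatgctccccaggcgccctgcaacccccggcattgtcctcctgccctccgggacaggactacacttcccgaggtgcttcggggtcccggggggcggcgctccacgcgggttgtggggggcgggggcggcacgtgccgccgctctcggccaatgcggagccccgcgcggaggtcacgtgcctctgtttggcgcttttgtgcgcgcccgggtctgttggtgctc
STMN3, chr20:63652767-63653016, minus strand: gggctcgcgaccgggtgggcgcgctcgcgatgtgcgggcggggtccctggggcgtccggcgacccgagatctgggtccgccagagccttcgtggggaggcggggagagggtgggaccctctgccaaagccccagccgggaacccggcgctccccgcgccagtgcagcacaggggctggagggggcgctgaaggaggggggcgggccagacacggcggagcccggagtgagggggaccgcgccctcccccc
Over 35116 promoters in the same table, windows of the same length held the CRE in 1.65%, the AP-1 site in 4.20% and the CRE core in 21.2%. The GC content was 73.2% for STMN1 and 78.0% for STMN3. The other 2 starts listed for STMN1 also held no match.

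Genes of the tubulin system, the target of stathmins, were counted from lists chosen with earlier results known. Of 18 tubulin genes, 13 were tested in experiment 2, and with vincristine in Control gRNA 9 were called lower and 1 higher, where 18.1% of all genes tested were called lower and 17.1% higher. Their median log2 fold change was -1.26, against 0.03 over all genes tested. TUBA1B, an alpha tubulin, fell by 1.94 (SE 0.06, adjusted p = 3.29e-24), the neuronal TUBA1A fell by 1.78 and TUBB4A fell by 1.75. TUBB6 was the 1 that rose (0.94 ± 0.13, adjusted p = 4.42e-08). In WT, 12 were tested, 10 called lower and 1 higher, against 14.5% and 15.7% of all genes, with TUBA1B at -2.28 and TUBB6 at 0.95. Without WT vincristine replicate 4 these counts were again 10 and 1, with TUBA1B at -2.42 and TUBB6 at 0.99. Tubulin genes were called lower with vincristine in every tested line. They were 9 of 13 with ATF2 gRNA (4.22% of all genes), 10 of 13 with JUN gRNA (8.31%), 10 of 12 in DLK KO (2.28%) and 8 of 12 in LZK KO (1.61%). TUBB6 was not called with ATF2 gRNA (-0.18 ± 0.13) or JUN gRNA (-0.03 ± 0.13).

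Genes of proteins that bind or cut microtubules were counted in the same way. Of 24 that stabilise microtubules or promote growth, 4 were called higher and 10 lower with vincristine in Control gRNA, against 17.1% and 18.1% of all genes. CLASP2, a plus-end protein, rose by 0.35 ± 0.07, and DPYSL2 (CRMP2), a tubulin-binding protein of axons, fell by 0.59. MAP1A fell by 0.52 and DPYSL5 by 0.44. In untreated ATF2 gRNA 20 of these 24 were called lower and 2 higher, with a median of -0.41 against 0.02 over all genes, of which 20.2% were called lower and 19.7% higher. Untreated DLK KO had 16 called lower and 2 higher, with a median of -0.32, where 17.9% of all genes were called lower. Untreated LZK KO had 5 lower and 2 higher (16.8% of all genes lower), and untreated JUN gRNA 8 lower and 3 higher (5.46% lower). Among severing and depolymerising proteins, the kinesin KIF2A rose with vincristine in Control gRNA (0.23 ± 0.05, adjusted p = 0.00102). FIGN, which encodes the severing enzyme fidgetin, fell there (-0.51 ± 0.09, adjusted p = 1.29e-05).

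The list of kinases known to phosphorylate stathmins held 19 genes, among them CDK5R1, which encodes an activator of CDK5 and not a kinase. Of the 19, 2 were higher and 6 lower with vincristine in Control gRNA, and 11 were not called. Of all genes, 17.1% were higher and 18.1% lower. PRKACB rose by 0.33 ± 0.10 and CAMK2D by 0.22 ± 0.06, while PRKACA fell by 0.49 and CDK5 by 0.41. In untreated ATF2 gRNA 12 of the 19 were called lower and 2 higher, against 20.2% and 19.7% of all genes. Of 4 palmitoyl acyltransferases, ZDHHC7 (-0.32 ± 0.05) and ZDHHC3 (-0.20 ± 0.05) fell with vincristine in Control gRNA.

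Among 8 genes of axon survival and of STMN2 RNA or protein turnover, NMNAT2, a short-lived survival factor, rose by 0.21 ± 0.03 with vincristine in Control gRNA. It fell by 0.96 (SE 0.03, adjusted p = 1.60e-28) in untreated ATF2 gRNA. TARDBP fell by 0.29 with vincristine (SE 0.04) and was not called in untreated ATF2 gRNA (0.04 ± 0.04). Among 7 tested growth cone and regeneration genes, 3 rose and 3 fell with vincristine in Control gRNA, where 17.1% of all genes were called higher and 18.1% lower. ATF3, an injury-induced transcription factor, rose by 3.48 ± 0.07 there and by 3.98 ± 0.11 in WT (3.95 without replicate 4), and by 0.48 ± 0.07 with ATF2 gRNA. GAP43, a growth cone protein, fell by 0.14 in Control gRNA and was 0.91 lower on the log2 scale in untreated ATF2 gRNA.

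Each member was set beside the genes most like it across libraries. Likeness is the smaller of the Pearson correlations of log2 CPM over the 32 libraries of experiment 1 and the 29 of experiment 2, among 9637 genes. It is a description, since libraries of a group share their line and treatment. STMN1 and STMN2 were most like each other among the members (0.942 and 0.982 in the 2 experiments). The gene most like STMN2 was GNG2, a G protein gamma subunit (0.970), and STMN1 was also near GNG2 (0.940) and GDI2 (0.935). STMN3 was nearest to RUSC2 (0.924), then JUP (0.886) and TSPAN17 (0.869). Its correlation with STMN4 was -0.870 in experiment 1 and 0.726 in experiment 2. Those of STMN1 and STMN2 with STMN4 were -0.596 and -0.47 in experiment 1, and 0.832 and 0.866 in experiment 2.

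The genes most like STMN4 were the antisense RNA KRTAP5-AS1 (0.979), the tetraspanin TSPAN7 (0.975) and SHISA5 (0.955). KRTAP5-AS1 was at 37.3 ± 2.45 CPM in untreated WT and 4.05 ± 0.869 in the untreated double KO (SD, n = 4). It stood at 35.0 ± 2.96 CPM in untreated Control gRNA and 1.95 ± 0.422 in untreated ATF2 gRNA (SD, n = 5). TSPAN7 was at 63.9 ± 4.00 CPM in untreated WT and 12.5 ± 1.48 in the untreated double KO (SD, n = 4), and at 178 ± 6.02 with Control gRNA and 49.6 ± 1.62 with ATF2 gRNA (SD, n = 5). The strand setting of the counting is not given in the sources used here, so reads of an antisense RNA and its partner may not be separated.

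Overlapping genes and copies took few reads. STMN1 overlaps SNRPFP2, AL033528.1 and, in an exon, MIR3917, which held at most 3 reads in any library. The STMN1 copy STMN1P1 held 5 to 34 reads per library in experiment 1, where STMN1 held at least 6208.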

How the data were processed

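RNA of 61 libraries was measured as deposited raw counts per gene, 1 table per experiment, with whole numbers that sum to different totals per library. Per the labels, stranded libraries of poly(A) RNA were read from both ends. Genes of small RNA types, such as small nuclear RNA, took 1.52% to 4.77% of counts in experiment 1. In experiment 2 they took 0.00744% to 0.0141%, so the experiments differed in more than depth. The cause was not tested. Per the submitters' processing notes, cutadapt 3.4, STAR and featureCounts (Subread 2.0.1) were used on GRCh38. The strand setting and the use of marked duplicates are not given in the sources used here. Of 58440 identifiers, 56992 had the same version and start in GENCODE 29 and 58320 were matched to a symbol. The labels' protocol gives 10 to 14 days of differentiation and the series design gives day 14.

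Each experiment was fitted alone with edgeR 4.0.16 in R 4.3.3 (filterByExpr by group, TMM, robust quasi-likelihood test, 1 mean per group, all groups in 1 fit). This left 18235 and 20759 genes. SE was taken as the size of the log2 fold change over the root of its F statistic. Levels per length used the length column deposited with the counts. Precision is limited by the number of libraries more than by counting. Over 104 replicate pairs the lowest chi-square per degree of freedom was 1.585, so no library was counted as a copy.

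The members, comparisons, lists and markers were chosen with earlier results of these data known. Named genes are the members, at most 3 called genes per direction and list for vincristine in Control gRNA, the 3 genes most like each member with mean log2 CPM of at least 3, targeted genes, and overlapping genes or copies. Not every gene that this rule names is reported here. Alternatives were DESeq2 1.42.0, RLE factors, a mean of at least 1 CPM, no low-count filter, a block for the replicate number, only the compared groups, and omission of each of 61 libraries. The fits were tested on simulated data.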

Additional observations from a re-analysis of the deposited data

Results flagged for a closer look

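STMN3 in untreated JUN gRNA replicate 4 stood at 324 CPM, apart from the other 4 libraries of its group at 368.0 to 384.8 CPM. Its gap to the nearest library was 0.726 of the group's range. This was 1 of 56 sets of values examined in this way, where chance alone marks about 1 in 20.

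The vincristine effect differed between guides by a test of the difference for 3 of the 4 genes. Against Control gRNA, the log2 fold change with ATF2 gRNA differed by 0.12 for STMN2, by 0.29 for STMN3 and by -1.59 for STMN4. With JUN gRNA the differences were 0.13 for STMN2, 0.23 for STMN3 and -0.50 for STMN4. Of all genes tested, 20.6% were called for the ATF2 gRNA difference and 15.8% for the JUN gRNA difference. The STMN2 calls are fragile. Both were lost with no low-count filter (edgeR adjusted p = 0.148 and 0.257). Leaving out 1 library at a time, the STMN2 call was lost for 16 libraries with ATF2 gRNA and for 15 with JUN gRNA. These comparisons share the Control gRNA libraries. Between ATF2 gRNA and JUN gRNA the difference was -1.09 for STMN4, where 2.83% of genes tested were called.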

How the results depend on the processing

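Of 60 tested results on the 4 genes, 30 were called, and 24 of these kept direction and call in every alternative tried. The SE of a comparison between untreated lines in experiment 1 was 0.15 for STMN1 and 0.12 for STMN2. Same-numbered libraries had correlations from -0.685 to 0.527 over 52 pairs, 21 of them over 0.1, so the number was not taken as a pairing. The cause of each change below was not tested.

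With the replicate block, STMN3 in untreated DLK KO was -0.265 and no longer called (adjusted p = 0.0614), the STMN1 difference between ATF2 gRNA and Control gRNA was 0.0008 and the STMN2 difference between ATF2 gRNA and JUN gRNA was 0.0023, both uncalled and of turned sign, and no other call or sign changed under the block. Those differences were also of turned sign with RLE factors (0.004 and 0.009) and DESeq2 (0.004 and 0.009). The STMN2 difference was 0.0132 with no low-count filter, 0.0099 at a mean of 1 CPM and 0.013 with only the groups compared.

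With DESeq2, STMN3 in untreated DLK KO was -0.264 and lost its call, and the STMN4 difference of LZK KO from WT gained one (-0.229). With no filter, calls were gained for the STMN3 differences of DLK KO (0.366) and LZK KO (0.382) from WT and for STMN3 in untreated LZK KO (-0.217). Calls were lost for the STMN2 differences of ATF2 gRNA (0.105) and JUN gRNA (0.0923) from Control gRNA, and the STMN3 effect in JUN gRNA turned to -0.0099. At a mean of 1 CPM, the STMN4 difference of LZK KO was called (-0.248) and the STMN2 difference of JUN gRNA was not (0.115). With only the groups compared, calls were gained for STMN3 with vincristine in DLK KO (0.24), STMN2 in untreated DLK KO (-0.194) and STMN3 in untreated LZK KO (-0.223). They were lost for STMN4 in ATF2 gRNA (-0.355), STMN1 in JUN gRNA (-0.099) and the STMN2 difference of JUN gRNA (0.12).

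Ranges from leaving out each library are given where a call or sign changed. In the double KO they are given where the value moved by more than its SE. For the vincristine effect they were -0.312 to -0.0431 for STMN2 and -0.222 to 0.0254 for STMN3 in WT, -0.541 to -0.266 for STMN4 in ATF2 gRNA, and -0.135 to -0.0656 for STMN1 and -0.035 to 0.0283 for STMN3 in JUN gRNA. For differences from WT they were, in DLK KO, -0.10 to 0.205 for STMN1, -0.0423 to 0.231 for STMN2 and 0.208 to 0.45 for STMN3. In LZK KO they were 0.194 to 0.47 for STMN2, 0.216 to 0.464 for STMN3 and -0.297 to -0.20 for STMN4, and in the double KO 0.25 to 0.52 for STMN2 and 0.113 to 0.359 for STMN3. For differences from Control gRNA they were -0.0308 to 0.0136 for STMN1 and 0.0881 to 0.15 for STMN2 with ATF2 gRNA, and 0.0497 to 0.134 for STMN1 and 0.0857 to 0.158 for STMN2 with JUN gRNA. The STMN2 difference between ATF2 gRNA and JUN gRNA ran from -0.0338 to 0.0303. Untreated, they were -0.299 to -0.217 for STMN3 in DLK KO, and -0.106 to -0.0408 for STMN1 and -0.146 to -0.0922 for STMN2 in JUN gRNA.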
